A study of Rattus norvegicus with 6 samples.

Results

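The 8 genes described here encode transcription factors of interferon signaling (Stat2, Irf1, Irf7 and Irf9), cytosolic sensors of viral RNA (Rigi, Ifih1 and Dhx58) and Usp18, which restrains the pathway. They were chosen by name from the gene symbols of the table, and all 8 were found among 13104 genes and unmatched transcripts. Each is represented by 1 RefSeq transcript. 7 of the 8 were matched by accession. Rigi, the gene for RIG-I, carries the older symbol DDX58 in the authors' deposited table and was matched through the rat gene ID given there.

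RNA sequencing measured gene expression in colonic epithelium, taken as the inner layer of the colon wall. It came from 6 adult Wistar males, all of which had lost the pineal gland by surgery. The 3 melatonin animals (numbered 4, 5 and 6) received 1 mg/kg by intraperitoneal injection. The 3 vehicle animals (numbered 1, 2 and 3) received 2.5% ethanol in PBS by the same route. Injections were given as subjective night began, tissue was taken 4 h later, and each animal gave 1 library. The comparison asks how the colonic epithelium responds to melatonin when the animal's own nightly rhythm of the hormone cannot mask it. Nothing in the labels says whether animals shared a cage, a litter or a day of dissection.

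Values are FPKM, the fragments per kilobase of transcript, scaled to the mapped total of the library. Each library held an estimated 3280000 to 3590000 mapped fragments, a depth inferred from how the lowest FPKM values are spaced. The median gene tested rested on 122 estimated reads per library. Markers of colonic epithelium were high in every animal: the 11 measured summed to 11984, 12954 and 13333 FPKM in melatonin animals 4, 5 and 6 and to 12521, 12643 and 12896 FPKM in vehicle animals 1, 2 and 3. Their most abundant member was Krt8, a keratin of simple epithelia, at 3460 ± 220 FPKM after melatonin and 3250 ± 306 FPKM after vehicle (SD, n = 3 each). In bulk tissue RNA, fewer cells of a type and less RNA per cell cannot be told apart.

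Type I and type III interferons bind their receptors and activate Janus kinases, which phosphorylate STAT proteins, among them STAT2. STAT2 and IRF9 are parts of the complex ISGF3, which binds the interferon-stimulated response element (ISRE) in front of antiviral genes. Interferon gamma acts through STAT dimers that bind the gamma-activated sequence (GAS). RIG-I and MDA5, the protein of Ifih1, detect viral RNA in the cytosol and signal through MAVS to IRF3 and IRF7, which switch on interferon genes. LGP2, the protein of Dhx58, modulates both sensors and lacks the signaling domains they carry. Many of these genes are themselves interferon-stimulated, so that the pathway feeds back on its own parts. In the gut, epithelial cells meet viruses and microbes first and respond to type III interferon in particular.

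Promoter windows from RefSeq (build GRCr8, 250 bases before to 50 bases after the gene start, 300 bases in all) were held for 5 of the 8 genes: Stat2, Irf1, Irf7, Irf9 and Ifih1. They were searched on both strands for the letters GAAANNGAAA, a core of the ISRE, and TTCNNNGAA, the palindrome of the GAS. The ISRE letters occurred in Irf7 and Ifih1, and the GAS letters in Irf1 and Irf9. Stat2 held neither. Among all 33469 windows of the same length, 3.92% held the ISRE letters, 8.87% held the GAS letters and 12.3% held either. Each of the 5 windows searched for the 8 genes held at most 1 match, so no matches overlapped there. The windows with a match are shown because they separate the factors by the letters they carry, with the matched letters in capitals, on the strand of the gene and 5′ to 3′.
Irf1 (chr10:38417685-38417984, plus strand): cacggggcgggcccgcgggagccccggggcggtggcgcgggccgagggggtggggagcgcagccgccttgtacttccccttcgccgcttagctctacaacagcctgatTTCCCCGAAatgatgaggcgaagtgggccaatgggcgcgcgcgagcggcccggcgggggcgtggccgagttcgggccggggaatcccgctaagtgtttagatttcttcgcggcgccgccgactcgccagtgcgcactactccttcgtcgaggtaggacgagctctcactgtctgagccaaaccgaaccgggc
Irf9 (chr15:33065586-33065885, plus strand): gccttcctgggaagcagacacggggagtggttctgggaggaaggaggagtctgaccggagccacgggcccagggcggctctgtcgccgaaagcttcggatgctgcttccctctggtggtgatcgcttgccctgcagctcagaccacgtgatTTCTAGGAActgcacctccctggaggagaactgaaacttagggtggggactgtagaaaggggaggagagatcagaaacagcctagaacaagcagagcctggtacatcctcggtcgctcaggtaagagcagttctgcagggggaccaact
Irf7 (chr1:205799974-205800273, minus strand): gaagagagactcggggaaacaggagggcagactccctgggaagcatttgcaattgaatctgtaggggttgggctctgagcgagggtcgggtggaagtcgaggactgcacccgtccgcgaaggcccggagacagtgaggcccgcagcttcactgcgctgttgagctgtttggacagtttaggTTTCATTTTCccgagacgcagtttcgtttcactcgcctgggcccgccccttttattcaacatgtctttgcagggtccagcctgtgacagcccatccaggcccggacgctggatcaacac
Ifih1 (chr3:67683919-67684218, minus strand): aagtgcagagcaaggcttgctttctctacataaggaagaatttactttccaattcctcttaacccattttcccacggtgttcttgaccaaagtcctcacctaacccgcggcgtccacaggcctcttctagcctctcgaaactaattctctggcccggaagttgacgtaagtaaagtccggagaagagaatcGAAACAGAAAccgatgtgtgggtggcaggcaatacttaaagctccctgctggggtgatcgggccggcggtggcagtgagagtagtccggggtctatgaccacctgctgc
The match began 142 bases before the gene start in Irf1, 99 bases before it in Irf9, 69 bases before it in Irf7 and 59 bases before it in Ifih1. In Irf7 the ISRE letters lie on the strand opposite to the gene. A match of letters is a description of the sequence and does not show that a factor binds there.

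Across the 8 genes, melatonin animals 5 and 6 lay above every vehicle animal for each gene, while melatonin animal 4 lay near the vehicle level. The median difference from the vehicle mean, on log2(FPKM + 1), was 0.02, 0.91 and 0.75 in melatonin animals 4, 5 and 6, against 0.06, -0.06 and -0.05 in vehicle animals 1, 2 and 3. Over all 10137 genes and transcripts tested, the same median lay between -0.09 and 0.04 in the 6 animals. In animal 5, 8 of 8 genes exceeded all vehicle animals, where 26.1% of all features did. In animal 6 it was again 8 of 8, where 21.4% of all features did, and in animal 4 it was 1 of 8 (Rigi), where 28.7% did. Animal 4 lay below all vehicle animals for 3 of 8 genes (Stat2, Irf7 and Ifih1), where 17.6% of all features did. Animals 5 and 6 did so for 0 of 8, where 26.7% of all features did in animal 5 and 41% in animal 6. The pattern in which animals 5 and 6 exceeded all vehicle animals and animal 4 did not was met by 7 of the 8 genes and by 7.37% of all features. That interferon-stimulated genes were higher in animals 5 and 6 was known when the 8 genes were chosen, so these counts are no independent support for it. The labels give no difference between animal 4 and the other melatonin animals, and the scale factors of the 3 libraries, estimated by median of ratios, were 1.04, 1.01 and 0.937 in animals 4, 5 and 6.

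**Figure D1:**
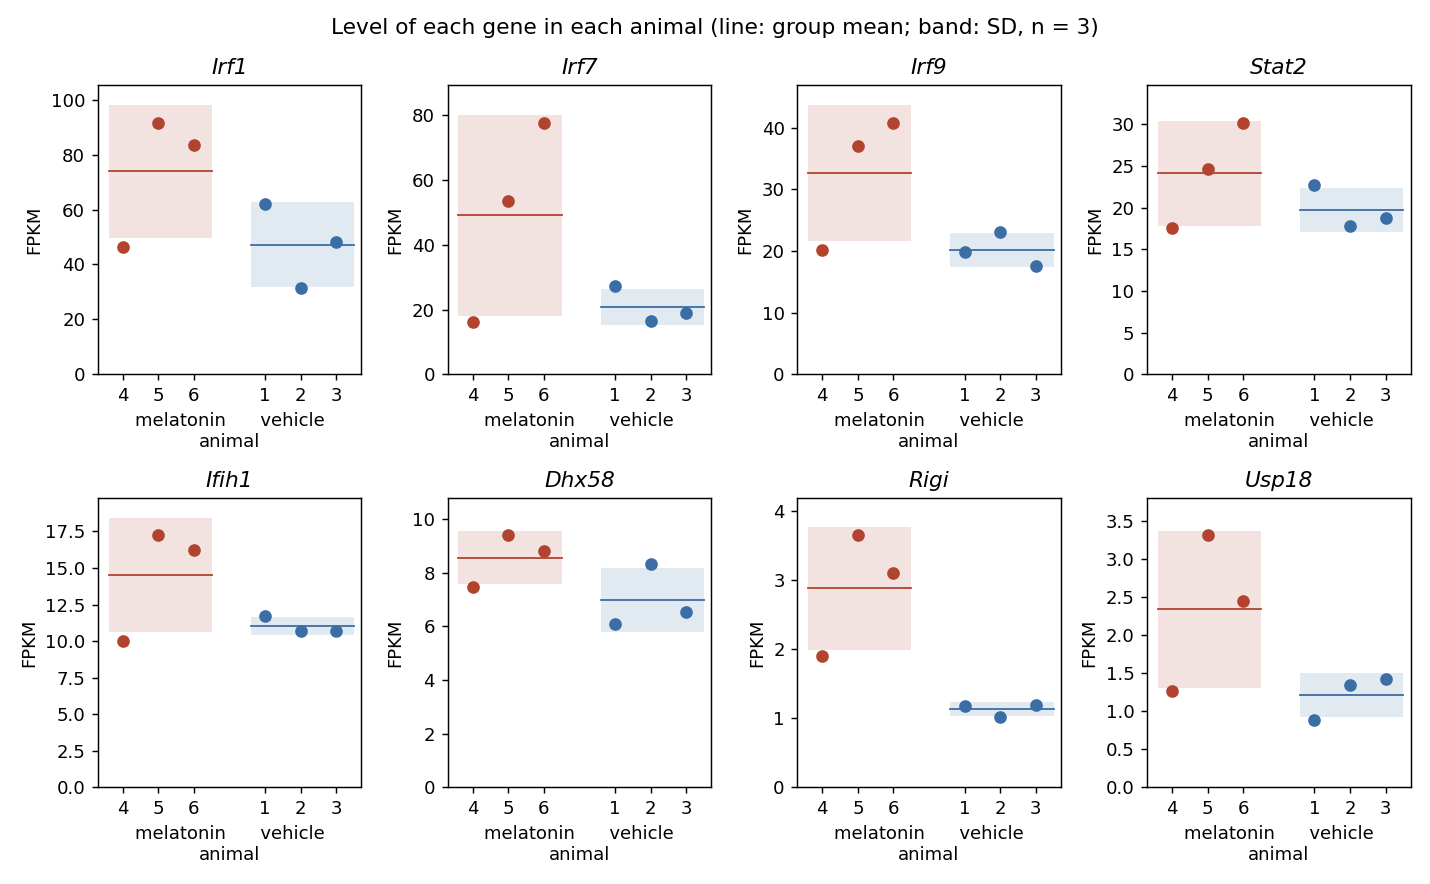
FPKM (y axis, from 0) of each of the 8 genes in melatonin animals 4 to 6 (red) and vehicle animals 1 to 3 (blue), with the group mean as a line and the SD as a band (n = 3). Animals 5 and 6 stand above all vehicle animals in every panel, and Rigi is the panel in which animal 4, at 1.90 FPKM, does so as well.

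No gene of the 8 passed the test of melatonin against vehicle. With limma on log2(FPKM + 1), 0 of 8 had an adjusted p under 0.05, and the adjusted p was 0.972 for each. Of all features, 0% were called in either direction. Before adjustment, 2 of 8 (Rigi and Irf9) were higher at a p under 0.05, where 1.82% of all features were, and 0 of 8 were lower, where 1.92% were. Limma voom on estimated reads also called 0 of 8, and 0 of all 10137 features. Its unadjusted p was under 0.05 for 2 of 8, where 165 of 10137 features were higher and 183 lower. The change was positive for 8 of 8 genes, with a median of 0.58 on the log2 scale, where 46% of all features were positive and the median was -0.02. With 3 animals against 3, an exact two-sided permutation test of a single gene cannot go below p = 0.1.

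Among the transcription factors, Irf1 had the highest level. Its protein activates interferon and antigen presentation genes and is induced by interferon gamma. Irf1 stood at 46.43, 91.58 and 83.48 FPKM in melatonin animals 4, 5 and 6, against 62.13, 31.49 and 48.14 FPKM in vehicle animals 1, 2 and 3. The groups overlapped, since animal 4 lay inside a vehicle range whose highest value was 1.97 times its lowest. The log2 change was 0.63 ± 0.30 (SE), and 0.37 ± 0.29 (SE) without vehicle animal 2, the lowest of the 6 for Irf1.

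Irf7, which amplifies the type I interferon response once induced, had the largest log2 change of the 8. It stood at 16.17, 53.54 and 77.73 FPKM in melatonin animals 4, 5 and 6, against 27.24, 16.58 and 18.84 FPKM in the vehicle animals. Animal 4 was the lowest of all 6 animals and animal 6 the highest, and the groups overlapped. Animals 5 and 6 stood at 2.56 and 3.72 times the vehicle mean, and animal 4 at 0.774 times that mean. The log2 change was 0.97 ± 0.50 (SE), with the largest standard error among the 8 genes. The promoter window of Irf7 shown above carries the ISRE letters.

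Irf9 and Stat2 encode parts of ISGF3. Irf9 stood at 20.13, 37.01 and 40.78 FPKM in melatonin animals 4, 5 and 6, against 19.81, 23.14 and 17.54 FPKM in the vehicle animals, so animal 4 lay within the vehicle range. Its log2 change was 0.62 ± 0.25 (SE). Stat2 stood at 17.55, 24.60 and 30.19 FPKM in melatonin animals 4, 5 and 6, against 22.74, 17.78 and 18.71 FPKM in the vehicle animals. Animal 4 was the lowest of the 6 for Stat2, and animal 5 lay only a little above vehicle animal 1. The log2 change of Stat2 was the smallest of the 8, at 0.25 ± 0.20 (SE). In animal 6 they stood at 2.02 times (Irf9) and 1.53 times (Stat2) their vehicle means.

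Of the RNA sensors, Rigi was the gene whose groups did not overlap. It stood at 1.90, 3.64 and 3.09 FPKM in melatonin animals 4, 5 and 6, against 1.18, 1.01 and 1.19 FPKM in the vehicle animals. Non-overlap with melatonin higher was met by 1 of 8 genes and by 4.04% of all features. These levels correspond to an estimated 30, 59 and 50 reads in the melatonin libraries and 19, 15 and 19 reads in the vehicle libraries. The mean was 2.88 ± 0.889 FPKM after melatonin and 1.13 ± 0.101 FPKM after vehicle (SD, n = 3 each). Its log2 change was 0.84 ± 0.26 (SE), and it ranked at place 88 of the 10137 features by limma p.

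Ifih1 stood at 10.02, 17.23 and 16.26 FPKM in melatonin animals 4, 5 and 6, against 11.72, 10.66 and 10.68 FPKM in the vehicle animals. The vehicle animals lay close together, animal 4 lay below them all, and animals 5 and 6 stood at 1.56 and 1.48 times the vehicle mean. The log2 change of Ifih1 was 0.33 ± 0.21 (SE). Its promoter window carries the ISRE letters, as that of Irf7 does. Dhx58 stood at 7.46, 9.39 and 8.82 FPKM in melatonin animals 4, 5 and 6, against 6.09, 8.33 and 6.52 FPKM in the vehicle animals. The distance between animal 6 and vehicle animal 2 was the narrowest margin for this gene, at an estimated 74 reads against 64 reads. The log2 change of Dhx58 was 0.27 ± 0.18 (SE).

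Usp18 encodes a protease that removes ISG15 from proteins and also blocks signaling at the type I interferon receptor. It stood at 1.26, 3.31 and 2.45 FPKM in melatonin animals 4, 5 and 6, against 0.88, 1.34 and 1.42 FPKM in the vehicle animals. Animal 4 lay within the vehicle range and animals 5 and 6 above it. These values are an estimated 7, 19 and 14 reads in the melatonin libraries and 5, 7 and 8 reads in the vehicle libraries. The log2 change was 0.55 ± 0.31 (SE). Since 1 is added before the logarithm, this scale understates the change of Usp18 and Rigi most, and the ratio of group means, melatonin over vehicle, was 1.93 for Usp18 and 2.55 for Rigi.

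On FPKM without rescaling, the genes differed in which of animals 5 and 6 was higher. Irf7, Irf9 and Stat2 were higher in animal 6, at 1.45, 1.10 and 1.23 times animal 5. The other 5 were higher in animal 5: Usp18 at 1.35 times animal 6, Rigi at 1.18 times, Irf1 at 1.10 times, and Ifih1 and Dhx58 at 1.06 times each. For Irf7 these are an estimated 375 reads in animal 5 and 542 reads in animal 6. With 1 library per animal these differences have no replicate check. The scale factors by median of ratios were 1.01 in animal 5 and 0.937 in animal 6. Ratios as near 1 as those of Ifih1 and Dhx58 depend on that scaling.

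The order of levels, per length, was Irf1, Irf7, Irf9, Stat2, Ifih1, Dhx58, Rigi and Usp18 in the melatonin animals. Neighbours in this order overlapped between animals for Irf1 with Irf7, Irf7 with Irf9, Irf9 with Stat2, and Rigi with Usp18. In the vehicle animals the order was the same except that Usp18, at 1.21 ± 0.291 FPKM, stood above Rigi, at 1.13 ± 0.101 FPKM (SD, n = 3), and those values overlapped. Irf1, at 73.8 ± 24.1 FPKM after melatonin and 47.3 ± 15.3 FPKM after vehicle (SD, n = 3 each), did not overlap with Irf7 in the vehicle animals. Irf7, Irf9 and Stat2 overlapped there, at means of 20.9, 20.2 and 19.7 FPKM.

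Leaving out melatonin animal 4 brought the 8 genes closer to the threshold without any passing it. This animal had already been seen to lie near the vehicle level for these same genes. The shift follows from those values and is no independent support for a change. Without animal 4, 0 of 8 had an adjusted p under 0.05, where 0.0395% of all features were called higher. At an unadjusted limma p under 0.05, 7 of 8 were higher, where 4.79% of all features were higher and 6.63% lower. The exception was Dhx58, with a log2 change of 0.35 ± 0.19 (SE). Irf7 reached a log2 change of 1.61 ± 0.24 (SE, limma adjusted p = 0.101) and Irf9 of 0.92 ± 0.15 (SE, limma adjusted p = 0.129). Stat2 reached 0.45 ± 0.16 and Ifih1 0.56 ± 0.14 (SE), with limma adjusted p-values of 0.382 and 0.293. The changes of Irf7, Stat2 and Ifih1 were thus more than 1.5 times those with all animals. Without melatonin animal 5 the count at an unadjusted limma p under 0.05 was 0 of 8. Of 10136 features, 129 were then higher and 141 lower. Without melatonin animal 6 the count was 1 of 8, where 183 of 10135 features were higher and 124 lower. Without animal 6, Stat2 had a log2 change of 0.08 ± 0.19 (SE) and Irf7 of 0.51 ± 0.45 (SE). Without animal 5, Ifih1 had 0.20 ± 0.22 and Usp18 0.34 ± 0.34 (SE).

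**Figure D2:**
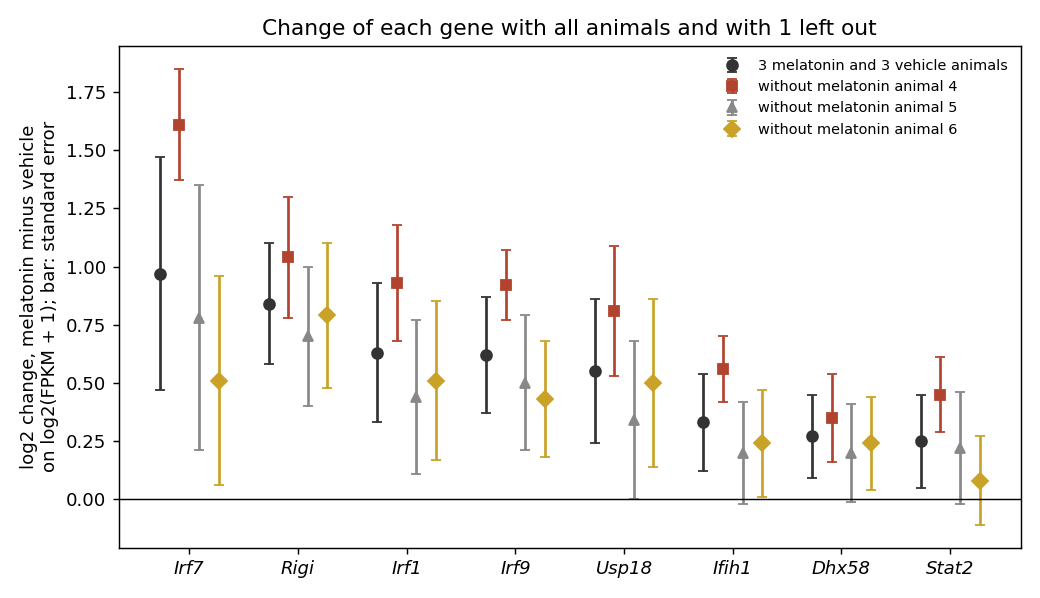
Log2 change, melatonin minus vehicle, on log2(FPKM + 1) with its standard error (y axis), for each of the 8 genes with all 6 animals and with melatonin animal 4, 5 or 6 left out. All 8 changes are above 0 in the 4 fits drawn, and those without animal 4 are the highest for each gene.

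The upstream parts of the pathway did not pass the test either, and the median changes of their lists were smaller. This did not hold for each gene. The log2 changes of Stat3 (0.30), Ifngr1 (0.26) and Stat6 (-0.26) were about as large as those of Stat2 (0.25) and Dhx58 (0.27). Of the receptor chains, 5 of 6 were in the table and tested, with 0 past the threshold, 2 positive, 3 negative and a median log2 change of -0.09. Ifngr1, the ligand-binding chain for interferon gamma, stood at 116.52, 149.36 and 172.08 FPKM in melatonin animals 4, 5 and 6, against 122.10, 121.48 and 117.39 FPKM in the vehicle animals. Animal 4 lay just below the vehicle animals, and animals 5 and 6 lay above. Il10rb, a chain shared by type III interferon and interleukin 10 receptors, stood at 76.7 ± 2.40 FPKM after melatonin and 84.8 ± 1.72 FPKM after vehicle (SD, n = 3 each), and its groups did not overlap, as for 4.33% of all features with melatonin lower. Ifngr2 stood at 89.2 ± 6.69 and 80.4 ± 1.71 FPKM, and Ifnar1, a chain of the type I receptor, at 7.75 ± 1.43 and 8.34 ± 0.299 FPKM, each after melatonin and after vehicle (SD, n = 3 each).

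Of the Janus kinases and the other STAT genes, 8 of 9 were tested, with 0 past the threshold, 6 positive, 2 negative and a median log2 change of 0.07. Stat3, which serves interleukin 6 and interleukin 22, stood at 43.60, 54.38 and 73.39 FPKM in animals 4, 5 and 6, against 54.29, 38.75 and 43.96 FPKM in the vehicle animals. Stat6, the factor of interleukin 4 signaling, stood at 56.98, 39.83 and 29.31 FPKM in animals 4, 5 and 6, against 50.64, 47.26 and 48.69 FPKM, so animals 5 and 6 lay below the vehicle range. Stat5a stood at 6.28 ± 1.27 FPKM after melatonin and 5.46 ± 0.925 FPKM after vehicle (SD, n = 3 each).

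Of the other interferon regulatory factors, 4 of 6 were tested, with 0 past the threshold, 3 positive, 1 negative and a median log2 change of 0.08. Irf2, which competes with Irf1 for the same sites, stood at 42.79, 40.11 and 38.12 FPKM in melatonin animals 4, 5 and 6, against 36.08, 28.60 and 29.48 FPKM in the vehicle animals. Its groups did not overlap, and here animal 4 was the highest (log2 change 0.36 ± 0.12, SE; limma adjusted p = 0.972). Irf3, the constitutive factor that acts first after RNA sensing, stood at 95.8 ± 6.50 FPKM after melatonin and 108 ± 7.11 FPKM after vehicle (SD, n = 3 each). Irf8 stood at 35.0 ± 1.61 FPKM after melatonin and 31.7 ± 5.10 FPKM after vehicle (SD, n = 3 each).

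**Figure D3:**
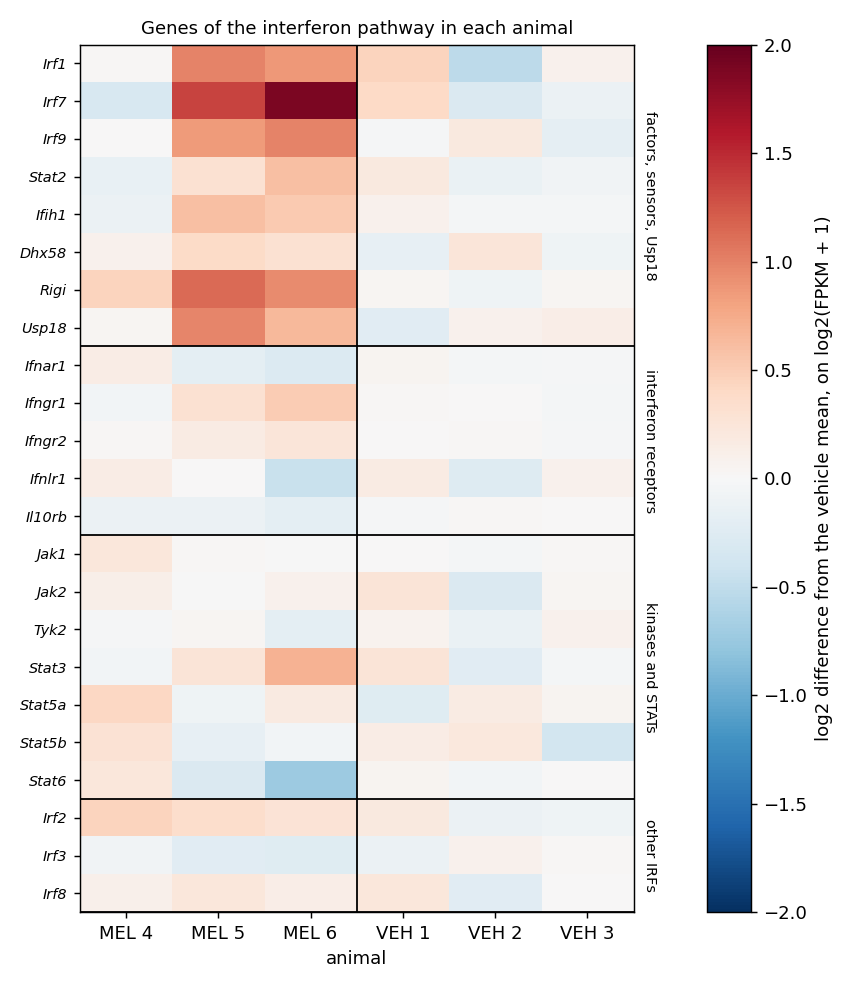
Log2 difference of each animal from the vehicle mean, on log2(FPKM + 1) (color), for the 8 genes, 5 receptor chains, 7 kinases and STATs and 3 other interferon regulatory factors (rows) in melatonin animals 4 to 6 and vehicle animals 1 to 3 (columns). The 8 genes are red in animals 5 and 6, with Irf7 reaching 1.88 in animal 6, while most receptors and kinases are pale.

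Of the other sensors, adaptors and kinases, 19 of 24 were tested, with 0 past the threshold, 15 positive, 4 negative and a median log2 change of 0.17. Zbp1, a sensor of Z-form nucleic acid, was listed at 0.69, 6.22 and 3.37 FPKM in melatonin animals 4, 5 and 6, against 0.84, 0.37 and 1.19 FPKM in the vehicle animals, and thus followed the 8 genes. Adar, which edits double-stranded RNA and so limits its sensing by MDA5, stood at 47.0 ± 3.57 FPKM after melatonin and 36.0 ± 1.38 FPKM after vehicle (SD, n = 3 each). Its groups did not overlap, with animal 4 at 44.43 FPKM and the highest vehicle animal at 37.17 FPKM (log2 change 0.37 ± 0.10, SE; limma adjusted p = 0.972). Ikbke, a kinase that activates IRF3 and IRF7, lay lower, at 17.55, 14.79 and 14.56 FPKM in animals 4, 5 and 6, against 21.40, 23.34 and 18.28 FPKM. Those groups did not overlap (log2 change -0.40 ± 0.14, SE; limma adjusted p = 0.972). Sting1, the adaptor of cytosolic DNA sensing, was listed at 3.14, 3.89 and 12.95 FPKM in animals 4, 5 and 6, against 3.63, 2.43 and 1.27 FPKM, and only animal 6 stood well apart.

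Among negative regulators and modifiers, 15 of 17 were tested, with 0 past the threshold, 10 positive, 5 negative and a median log2 change of 0.03. Socs1, which inhibits Janus kinases, was listed at 2.73, 6.51 and 10.40 FPKM in melatonin animals 4, 5 and 6, against 1.94, 0.53 and 1.71 FPKM in the vehicle animals. Its groups did not overlap, as for 4.04% of all features with melatonin higher. Its log2 change was 1.57 ± 0.43 (SE, limma adjusted p = 0.972), from a low vehicle mean of 1.39 FPKM. Isg15, the modifier that Usp18 removes, was listed at 4.11, 32.40 and 18.24 FPKM in animals 4, 5 and 6, against 7.58, 4.86 and 9.01 FPKM, with animal 4 below every vehicle animal. Like Usp18, it was higher in animal 5 than in animal 6. Nmi, an interferon-induced partner of STAT proteins, stood at 19.67, 25.13 and 29.13 FPKM in animals 4, 5 and 6, against 20.24, 19.50 and 17.80 FPKM. Socs3 was listed at 3.81, 16.49 and 34.41 FPKM in animals 4, 5 and 6, against 14.53, 1.84 and 3.42 FPKM, and vehicle animal 1 was high for it too.

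Of the downstream interferon-stimulated genes, 25 of 30 were tested, and their log2 changes had a median of 0.70, with 24 positive, 1 negative and 0 past the threshold. Their median difference from the vehicle mean was -0.14, 1.29 and 1.21 in melatonin animals 4, 5 and 6, against 0.25, -0.08 and -0.24 in the vehicle animals. As for the 8 genes, animals 5 and 6 had the highest medians, while animal 4 lay within the range of the vehicle animals. The order of animals 5 and 6 changed with the measure. Over the 27 genes in the table, the summed level was 495 FPKM in animal 5 and 666 FPKM in animal 6. Promoter windows were held for 23 of the 30, and 15 of these carried the ISRE letters, where 3.92% of all windows did. Of the 11 windows held for receptor chains, Janus kinases and other STAT genes, 0 carried the ISRE letters and 1 the GAS letters. So few windows cannot be told from the shares over all windows, 3.92% and 8.87%. The ISRE letters occurred in 3 of 16 windows of other sensors and adaptors and in 2 of 13 of negative regulators.

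The interferon genes themselves were not matched to a row and are not analysed here. Il15, an interferon-induced cytokine of the epithelium listed with them, stood at 16.44, 20.89 and 20.94 FPKM in melatonin animals 4, 5 and 6, against 14.19, 17.49 and 19.95 FPKM in the vehicle animals. Animals 5 and 6 exceeded the highest vehicle animal by less than the vehicle animals differed among themselves.

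Markers of other cell types were checked beside these values, since immune cells also express the 8 genes. The 12 markers of T and NK cells summed to 15.6, 27.5 and 52.7 FPKM in melatonin animals 4, 5 and 6, against 18.1, 19.2 and 8.31 FPKM in the vehicle animals. Over the 8 tested, 7 were positive and 0 passed the threshold, and 1, 2 and 0 of the 12 were at 0 in animals 4, 5 and 6, against 0, 0 and 5 in the vehicle animals. Cd3e, part of the CD3 complex of T cells, was listed at 2.60, 2.81 and 5.07 FPKM in animals 4, 5 and 6, against 1.97, 1.23 and 0.86 FPKM, with no overlap between the groups. Cd3d, from the same complex, was listed at 0.00, 0.00 and 1.33 FPKM in animals 4, 5 and 6, against 0.44, 0.48 and 0.00 FPKM. The markers Gzmb and Cd8a were also highest in animal 6, at 7.52 and 3.65 FPKM. The chemokine Ccl5 was listed at 2.15, 9.90 and 25.08 FPKM in animals 4, 5 and 6, against 3.66, 4.57 and 1.59 FPKM. Ccl5 thus made up much of the summed level in animals 5 and 6. Other markers ran differently: Nkg7, a granule protein of cytotoxic cells, was listed at 1.84, 6.09 and 2.15 FPKM in animals 4, 5 and 6, against 5.03, 3.92 and 0.00 FPKM. Ptprc, the pan-leukocyte gene for CD45, was highest in animal 4, at 5.19 FPKM, and Cd3g in vehicle animal 2, at 3.67 FPKM. The part of these markers in the values of the 8 genes was not tested.

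Macrophage and dendritic cell markers, 9 of 12 in the table, summed to 36.4, 28.3 and 25.1 FPKM in melatonin animals 4, 5 and 6, against 25.6, 19.4 and 21.1 FPKM in the vehicle animals. The sum was highest in animal 4, where the lysozyme gene Lyz2 alone gave 15.31 of the 36.4 FPKM. Mrc1 peaked in animal 6 at 10.74 FPKM, Cd68 in animal 5 at 4.22 FPKM and C1qb in vehicle animal 1 at 9.65 FPKM. Of the 9 genes, 1, 2 and 2 were at 0 in animals 4, 5 and 6, against 0, 3 and 1. The summed level of neutrophil markers was 6.43, 10.6 and 6.79 FPKM in animals 4, 5 and 6, against 16.2, 7.79 and 0.71 FPKM. The part of either list in the values of the 8 genes was not tested.

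**Figure D4:**
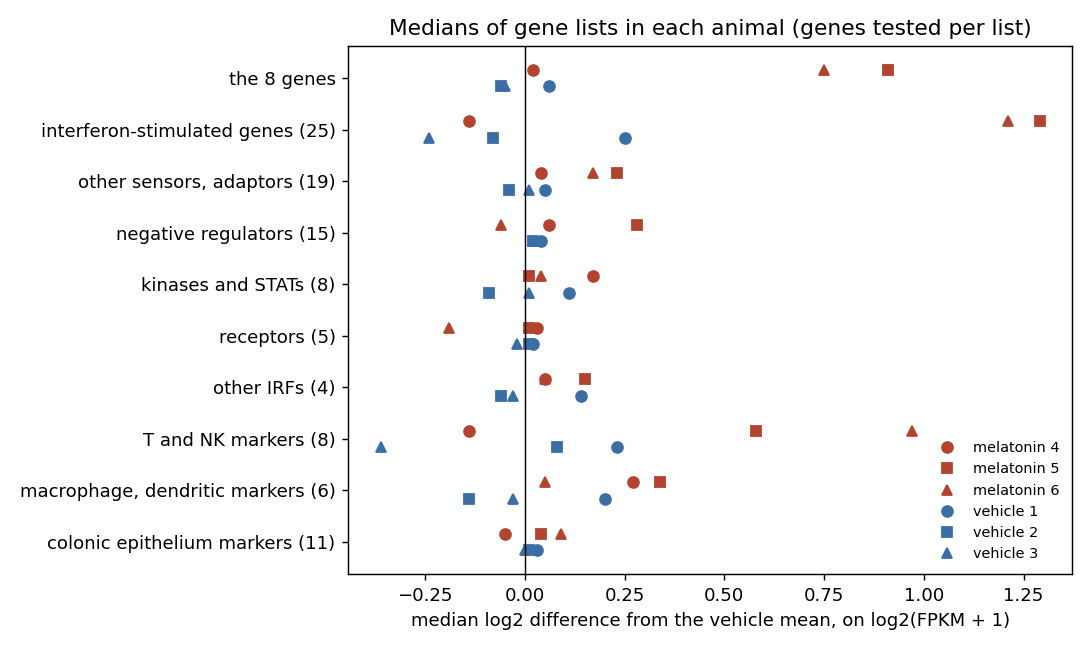
Median log2 difference from the vehicle mean, on log2(FPKM + 1) (x axis), of each gene list (y axis, with the number of genes tested) in melatonin animals 4 to 6 (red, upper marks) and vehicle animals 1 to 3 (blue, lower marks). The 8 genes lie at 0.02, 0.91 and 0.75 in animals 4, 5 and 6, the T and NK cell markers at -0.14, 0.58 and 0.97, and the colonic epithelium markers at -0.05, 0.04 and 0.09.

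The 8 genes were also compared with every other named gene tested, 9529 in all, by the mean absolute difference between a gene's log2 differences from the vehicle mean and the median of the 8 genes in the same 6 animals. Among the nearest were Hsp90b1 (0.07), Anxa2 (0.09), Cpsf3 (0.10), Lpcat4 (0.10), Fam151a (0.11), Derl3 (0.11) and Apaf1 (0.12), with the distance on the log2 scale in parentheses. Of the 8 genes themselves, Ifih1 lay at 0.12 and Irf9 at 0.13 from the shared median, and Dhx58 at 0.26 and Irf7 at 0.42. These genes are of several kinds. Hsp90b1, a chaperone of the endoplasmic reticulum, stood at 233.75, 447.34 and 450.60 FPKM in melatonin animals 4, 5 and 6, against 270.35, 261.28 and 242.97 FPKM in the vehicle animals. Derl3, a factor of endoplasmic reticulum-associated degradation, was listed at 0.65, 2.32 and 2.32 FPKM in animals 4, 5 and 6, against 0.63, 0.92 and 0.64 FPKM. Anxa2, a membrane-binding annexin, stood at 284.55, 451.72 and 490.03 FPKM in animals 4, 5 and 6, against 326.94, 250.97 and 275.62 FPKM. Apaf1, the scaffold of the apoptosome, stood at 7.44, 10.04 and 12.69 FPKM in animals 4, 5 and 6, against 8.12, 6.69 and 6.47 FPKM. In these 4, animals 5 and 6 lay above the vehicle range and animal 4 did not. Cpsf3 and Fam151a differed in that animal 4 lay above the vehicle range as well, at 28.36 FPKM for Cpsf3, against 23.11 FPKM in the highest vehicle animal, and at 3.66 FPKM for Fam151a, against 3.57 FPKM. Likeness of this kind, over 6 animals, is a description with no test.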

How the data were processed

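The authors deposited 1 table of FPKM values for 13647 RefSeq transcripts in 6 libraries, with their transcript lengths and group means, the log2 ratio of those means and a score headed as a probability, per the file headers. The FPKM values are rounded to 2 decimals. Per the submitters' processing notes, BWA 0.7.10-r789, Bowtie2 and RSEM and the build rn6 were used, with no roles given. Per the labels' protocols, mRNA was captured with oligo(dT) beads and no strand marking is described, so a gene and an antisense partner cannot be told apart. The log2 and score columns of the authors' deposited table were checked or left aside and enter no test.

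Accessions were matched to symbols of RefSeq GRCr8 (12883 matched, 5 more through the gene ID in the table), and transcripts of 1 gene were summed. Features with a mean of at least 1 FPKM (10137) entered a two-sided limma test (version 3.58.1, R 4.3.3) on log2(FPKM + 1), with a mean trend and Benjamini-Hochberg adjustment over all of them at 0.05. The procedure was tested on simulated data with the same spread in all animals and with larger changes than those of the 8 genes. That test does not show how often changes of their size would be found. Replicates are single animals. Reads were estimated from FPKM, with 36 bases taken off each length. Of low values of short transcripts (150 to 700 bases, under 8 reads), 82.7% to 89.0% then lay within 0.1 of a whole number. Evenly spread values would give 20%. Depth and the 36 bases were chosen for the best such agreement in these same values, so it is no independent check. All 8 genes passed the filter and had a mean of at least 1 FPKM after vehicle as well.

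The 8 genes, the 7 pathway lists and the 7 marker lists were chosen with earlier results of these data known. Named beside the 8 genes are up to 4 genes with the smallest p per pathway list and the 8 genes nearest in pattern. From each marker list up to 3 most abundant genes were named. Cd3d, Cd3g, Gzmb, Cd8a, Ptprc, Mrc1 and Cd68 were added after their values were seen. A few genes of these lists enter the counts and medians and are not reported here by name.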

Additional observations from a re-analysis of the deposited data

How the results depend on the processing

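All 134 values of the 8 genes under the 17 alternatives were positive, and 0 passed an adjusted p of 0.05 (smallest 0.101, for Irf7 without melatonin animal 4). With a filter of at least 5 FPKM, Rigi and Usp18 were not tested. Adding 0.1 or 5 in place of 1 gave Rigi log2 changes of 1.23 and 0.36, and voom on estimated reads gave 1.28. Usp18 moved likewise, to 0.82 and 0.23 with these additions and 0.83 with voom. Dhx58 had 0.18 when 5 was added and without vehicle animal 1. With sample quality weights, 6 of 8 genes were higher at an unadjusted limma p under 0.05. Of all 10137 features, 596 were then higher and 576 lower, against 185 and 195 without weights.

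Over all features, leaving out 1 animal gave 0 to 4 called higher and 0 lower; the 4, without melatonin animal 4, were Ifi27l2b, Ifit2, Mir126a and Oasl2, and without vehicle animal 1 there were 3, Fam111a, Scgb1a1 and Tnfsf10. Mir3074 was the 1 feature called lower with a filter of 0.1 FPKM, without a filter, and without a mean trend; the cause was not tested. Of the pathway lists, leaving out 1 animal called 0 to 1 genes, Ifit2 without melatonin animal 4. These genes were named after their values were seen. The median of the 8 genes in animals 5 and 6 was 0.48 and 0.46 when 5 was added, 0.93 in animal 6 when 0.1 was added, and 0.84 or 0.82 in animal 6 with median-of-ratios or upper-quartile scaling. Leaving out 1 vehicle animal gave 0.84 to 0.90 in animal 5, 0.65 to 0.83 in animal 6 and -0.03 to -0.01 in animal 4.

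No paired analysis was possible because melatonin and vehicle animals share no replicate number. At this depth Usp18 rests on 5 to 19 estimated reads per library.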

Other observations

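Markers of B cells, which belong to no comparison above, were highest in melatonin animal 4. The 5 in the table summed to 13.0, 1.17 and 0.23 FPKM in melatonin animals 4, 5 and 6, against 0.70, 3.20 and 1.55 FPKM in the vehicle animals. Cd79b, a chain of the B cell receptor, was listed at 4.54, 0.46 and 0.00 FPKM in animals 4, 5 and 6, against 0.70, 1.02 and 0.47 FPKM. The lysozyme gene Lyz2, a macrophage marker, was listed at 15.31, 6.68 and 4.65 FPKM in the melatonin animals, against 3.62, 2.61 and 5.62 FPKM. Smooth muscle markers summed to 9.61 to 14.3 FPKM in the melatonin animals and 8.37 to 12.7 FPKM in the vehicle animals. Fibroblast and endothelial markers summed to 7.21, 4.49 and 4.14 FPKM, against 3.67, 7.92 and 5.74 FPKM.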
